A study of Mus musculus with 6 samples.

Results

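Glycolysis and hypoxia response genes were followed through single cells from tumors that CT26, a colon carcinoma line of the mouse, formed in female Balb/c hosts. The list was set by name and held 36 of the 31053 genes in the deposited count table, of which 21 belong to glycolysis with its glucose and lactate transport and 15 to the response to low oxygen. All 36 had at least 1 transcript counted. CD45+ bead-enriched cells were taken 5 days after treatment and sequenced by droplet-based single-cell mRNA-seq, which counts each captured transcript once by its unique molecular identifier (UMI) from the 3′ end. The labels list 6 samples, 2 each of vehicle, low dose and high dose PD-1 GITR-L bispecific antibody, a fusion of a PD-1 antibody with the ligand of GITR. The dose of the low group is 10 mg/kg in the treatment protocol and 30 mg/kg in another field, and the high group received 30 mg/kg. The labels do not say how many mice stood behind a sample, and they give no age.

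The table held 33961 cells in 4 libraries called M1, M2, M5 and M6, with 7160 to 10294 cells and 158337797 to 315577167 UMIs each. These names match no sample label, so no library was assigned to a treatment, no treatment was compared and no p-value is given. Values are shown per library or by their lowest and highest library, and that spread holds any effect of treatment. The label Stroma took 61.2% and 57.1% of the cells in M1 and M2, at medians of 21800 and 20266 UMIs per cell over all labels, and 27.2% and 30.9% in M5 and M6, at 11399 and 12096. Pooled levels therefore weight the libraries differently from label to label. The authors' 12 cell type labels came from the ImmGen profile that correlated best with each cell's expression, so a difference between labels is a description. The paper does not say which genes were used for this. The label Stroma held 15687 cells at a median of 40692 UMIs per cell. Of the 10 immune labels, NK cells had 4398 cells at 5397 UMIs and Myeloid had 2680 cells at 8027. Ptprc, which encodes CD45, was at 7.47 CPM (UMIs of the gene per 1000000 UMIs of the same cells) in Stroma cells, against 1240 in NK cells. The fibroblast genes Col1a2 and Dcn were at 681 and 468 CPM in Stroma, and the label does not part tumor cells from fibroblasts. Lyz2 was at 6634 CPM in Myeloid and Cd8a at 597 in T cell EFF. Ncr1, a receptor of NK cells, was at 450 CPM in NK cells and 422 in ILC, with overlapping libraries, so it did not set these labels apart. The NKT label had Cd3e at 517 CPM, with Ncr1 at 33.1 and Klrb1c, another receptor gene of NK cells, at 9.25 CPM. The libraries shared 111 cell barcodes between them.

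Glycolysis splits glucose into pyruvate, and lactate dehydrogenase and the monocarboxylate transporters turn surplus pyruvate into lactate and move it out of the cell. When oxygen is low, the prolyl hydroxylases encoded by Egln1 and Egln3 no longer mark HIF-1α for destruction, and the factor activates genes of glucose uptake, glycolysis, angiogenesis and mitochondrial turnover. HIF-1α is itself regulated mainly as a protein, and its messenger level need not follow its activity. Activated T cells and inflammatory macrophages also raise glycolysis without hypoxia.

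HIF binds a short core, ACGTG or GCGTG, and the promoters below are shown because these genes lie at the opposite ends of the pattern in Stroma cells described further on. Bnip3, Pgk1 and Slc2a1 varied with the other hypoxia genes from cell to cell, and Hif1a and Slc16a1 hardly did. Each line gives the bases from 250 to 31 before the RefSeq transcription start (GRCm38.p6), 5′ to 3′ on the strand of the gene, with every ACGTG or GCGTG on either strand in capitals.
Bnip3 (chr7:138909537-138909756, minus strand): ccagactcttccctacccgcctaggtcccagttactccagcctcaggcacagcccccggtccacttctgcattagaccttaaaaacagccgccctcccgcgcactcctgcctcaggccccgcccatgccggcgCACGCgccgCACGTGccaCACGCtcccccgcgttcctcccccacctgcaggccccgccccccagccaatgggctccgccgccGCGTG
Pgk1 (chrX:106186850-106187069, plus strand): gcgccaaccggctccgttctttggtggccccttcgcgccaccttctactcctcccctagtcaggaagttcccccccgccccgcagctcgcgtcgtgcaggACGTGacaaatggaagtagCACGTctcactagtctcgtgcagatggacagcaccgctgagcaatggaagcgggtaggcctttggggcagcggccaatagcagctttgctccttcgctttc
Slc2a1 (chr4:119108495-119108714, plus strand): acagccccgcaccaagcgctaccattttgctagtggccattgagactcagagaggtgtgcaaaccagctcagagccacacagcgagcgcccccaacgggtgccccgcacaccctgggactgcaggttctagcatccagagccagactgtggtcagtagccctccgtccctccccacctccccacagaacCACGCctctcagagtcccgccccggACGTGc
Hif1a (chr12:73907617-73907836, plus strand): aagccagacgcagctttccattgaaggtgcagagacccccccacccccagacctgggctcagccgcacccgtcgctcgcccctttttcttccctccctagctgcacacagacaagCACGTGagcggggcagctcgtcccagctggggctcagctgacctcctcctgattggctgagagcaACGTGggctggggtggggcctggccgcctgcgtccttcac
Slc16a1 (chr3:104638414-104638633, plus strand): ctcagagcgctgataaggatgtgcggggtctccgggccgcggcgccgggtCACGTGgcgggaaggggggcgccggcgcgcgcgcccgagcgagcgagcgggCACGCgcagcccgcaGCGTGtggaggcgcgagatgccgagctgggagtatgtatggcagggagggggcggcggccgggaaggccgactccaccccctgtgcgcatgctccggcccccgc
The stretch of Bnip3 held 5 matches, of which the pair inside CACGTG is a single palindrome that is also the E-box. Pgk1 and Slc2a1 had 2 matches each, Hif1a 3 and Slc16a1 4, both with the palindrome, so genes at both ends of the pattern carried the core. Windows of 300 bases, 250 before to 50 after the start, were found for 33 of the 36 members, and not for Slc2a3, Ndrg1 and Ero1l. Of their 49 windows, 40 (81.6%) held at least 1 core, against 43.8% of all 32851 windows in the RefSeq table, and 30 (61.2%) held ACGTG, against 19.6%. The palindrome CACGTG, which contains ACGTG, stood in 6 (12.2%), against 7.15%. Some genes had several windows, and some of these overlapped, as for Eno1 and Aldoa, so the same match can count more than once. Both cores contain a CG pair, and the members' windows had a median of 21 CG pairs against 7 over all windows. The part of CG content in the higher share was not tested. A match is a run of letters and shows no binding. Only Gpi1 and Tpi1 had a window and no match.

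The summed level of the 21 glycolysis genes was highest in Stroma cells among the 8 labels with over 500 cells. It was 13349, 13904, 13857 and 14642 CPM in Stroma of M1, M2, M5 and M6, and 11419, 12579, 10321 and 11675 CPM in Myeloid. T cell EFF followed with 10875, 11858, 9101 and 10383 CPM, a range that overlapped that of Myeloid and lay below that of Stroma. NK cells were at 7483 to 9311 CPM, ILC at 7607 to 9239, T cell MEM at 7368 to 9040, DC at 6275 to 9089 and NKT at 5998 to 9114. These 5 labels overlapped and their order is not resolved. Gapdh supplied 27.0% to 32.7% of the sum in all 8 labels. The label Stem cells, with 37 cells and so not compared, was at 15374 CPM pooled, with 12534, 22659, 17865 and 9006 CPM in the libraries.

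The sum of the 14 hypoxia genes, Hif1a left out, parted Stroma and Myeloid from the lymphocytes and DC. It was 1506, 1831, 1727 and 1977 CPM in Stroma and 1320, 1795, 1382 and 1822 CPM in Myeloid. These ranges overlapped, although Stroma was higher within every library. ILC reached 937 to 1143 CPM, T cell EFF 873 to 1212, NKT 789 to 1281, T cell MEM 811 to 1006, DC 748 to 995 and NK cells 730 to 1007. Each of these 6 labels lay wholly below both Stroma and Myeloid. Ndrg1 was the largest part of the sum in Stroma, at 29.2%, and in Myeloid, at 22.1%, while Higd1a led in NK cells with 27.1%.

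**Figure D1:**
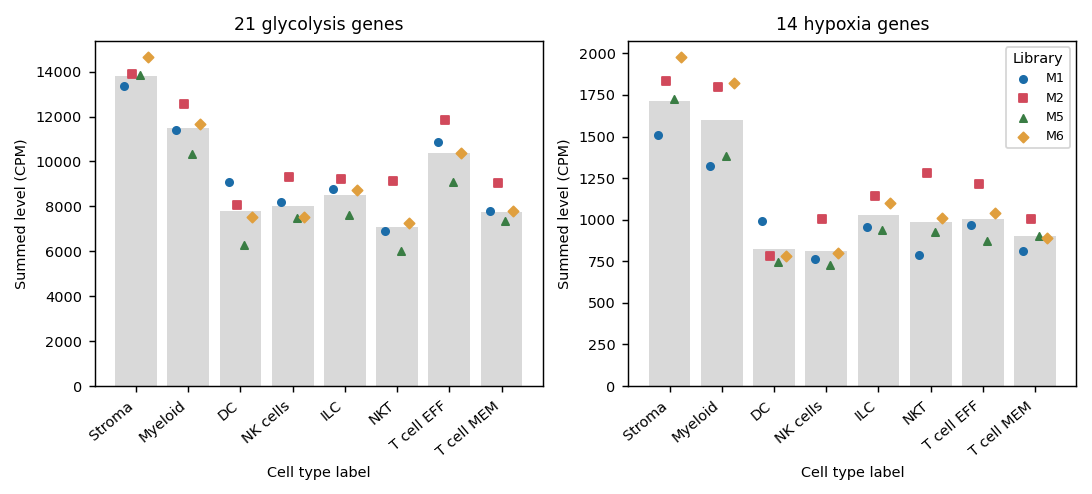
Summed level in CPM of the 21 glycolysis genes (left) and the 14 hypoxia genes (right) by cell type label, for the 8 labels of over 500 cells, with bars for all cells pooled and a point for each library. The Stroma points lie at 13349 to 14642 CPM for glycolysis, above the other 7 labels of over 500 cells, and at 1506 to 1977 CPM for hypoxia, where Myeloid overlaps them at 1320 to 1822 CPM. Within each library, the Myeloid point for hypoxia lies below that of Stroma.

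Stroma cells were nevertheless not higher for every member. Over these 8 labels, 20 members were highest in Stroma, 16 of them in all 4 libraries, 7 in Myeloid, 4 in NKT, 3 in DC and 2 in T cell EFF. The label was the same in all 4 libraries for 6 of the Myeloid, 3 of the DC, 1 of the NKT and 0 of the T cell EFF members. Stroma was also the lowest label for 7 members, Slc2a3, Pfkp, Pfkfb3, Aldoc, Slc16a3, Hif1a and Egln3. The share of all genes that were highest or lowest in each label was not computed, so these counts describe the members only. Stroma was then set against the 10 immune labels pooled, in each library apart, and a gene was called where the level plus 1 CPM differed at least 2-fold the same way in all 4 libraries. Of the 8836 genes with at least 10 CPM on either side, 13.2% were called higher in Stroma and 18.1% lower. Of the members, 34 passed the 10 CPM limit (Pfkm and Adm did not), and 5 were called higher (Slc16a1, Ndrg1, Ero1l, P4ha2 and Car9) and 6 lower (Slc2a3, Pfkp, Pfkfb3, Aldoc, Hif1a and Egln3). Of these 11, P4ha2 and Car9 passed the limit only through Stroma, and Slc2a3, Pfkfb3, Aldoc and Egln3 only through the immune cells, so the limit itself favoured a difference for these 6 and their count supports nothing. With no limit on level, 6 members were called higher and 6 lower, against 6.96% and 9.79% of all genes. All genes then include every gene under 10 CPM on both sides. Among the members only Pfkm and Adm were that low, so the 2 sets are unlike in level. The median log2 difference of the 34 was 0.56, against -0.03 over all genes tested.

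**Figure D2:**
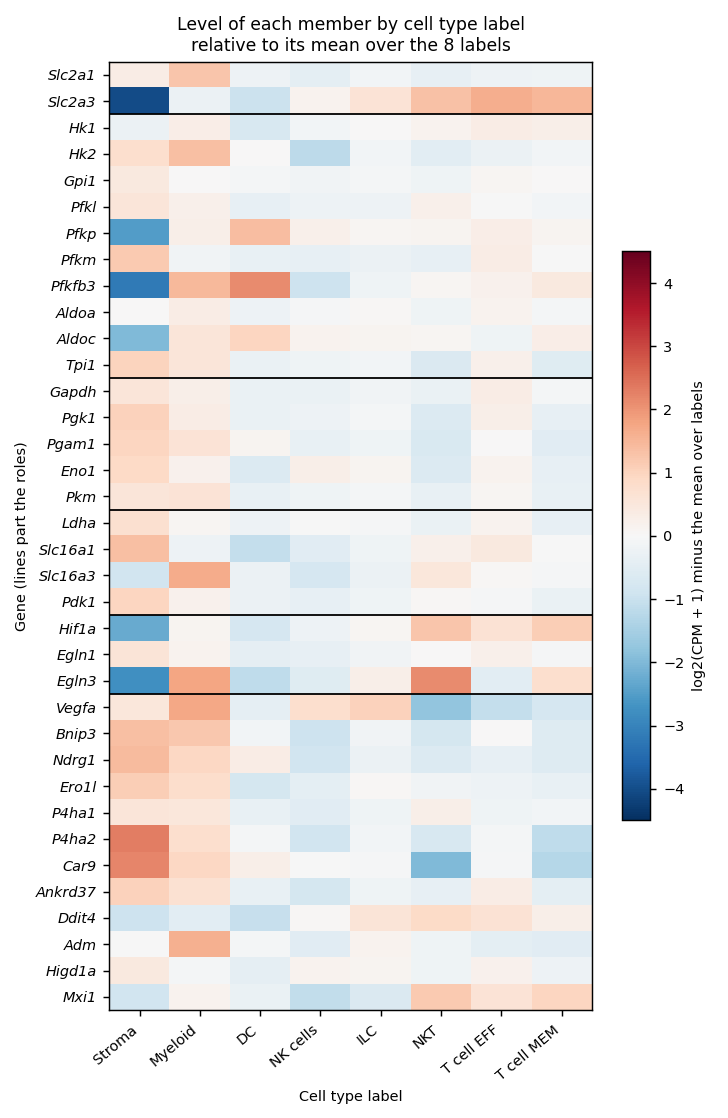
Level of each of the 36 members in the 8 labels of over 500 cells, as log2(CPM + 1) minus the gene's mean over the labels, from all cells pooled, with lines between the roles. The lowest entries are Slc2a3, Pfkfb3 and Egln3 in Stroma, at 0.508, 0.412 and 0.394 CPM, and P4ha2 and Car9 stand out in Stroma, at 32.6 and 21.7 CPM.

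Transcripts of the glucose transporters were split between paralogs by cell type label. Slc2a3 encodes GLUT3, a high-affinity glucose transporter (chr6:122727809-122801640, minus strand, GENCODE M21 on GRCm38). It was at 45.5, 75.02, 85.6 and 95.6 CPM in T cell EFF of M1, M2, M5 and M6, and at 0.479, 0.356, 0.836 and 0.616 CPM in Stroma, with no overlap. The log2 difference of Stroma from all immune cells was -4.85, with -4.91 to -4.27 over the libraries. With cells reduced at random to 2000 UMIs, a Slc2a3 UMI was seen in 566 of 3545 T cell EFF cells (88 shallower cells left out), or 15.97%, with an exact binomial 95% interval of 14.8 to 17.2 that covers counting error only. In Stroma the share was 0.115% (0.0682 to 0.182) of 15642 cells, with 45 left out. At full depth, a median of 10049 UMIs in T cell EFF and 40692 in Stroma, the shares were 49.2% and 1.77%. Slc2a3 was thus near 0 in Stroma, and Ptprc stood at 7.47 CPM in the same cells. Slc2a1 (chr4:119108711-119137983, plus strand) encodes the widespread transporter GLUT1. It was highest in Myeloid, at 146, 231, 176 and 238 CPM, followed by Stroma at 92.9 to 123 CPM. Among the labels of over 500 cells, its pooled level was lowest in NK cells, with 55.2 to 80.2 CPM over the libraries. Of the UMIs of both genes, Slc2a3 held 51.8% in T cell EFF (41.8 to 59.3 over the libraries), 48.0% in T cell MEM, 30.0% in NK cells, 8.96% in Myeloid and 0.475% in Stroma. UMIs are counted at the 3′ end and carry no length. Whether paralogs were captured and mapped alike was not tested, so shares are compared between labels and are not exact splits.

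In the upper part of glycolysis, up to the split of the phosphorylated sugar, the isoforms changed with the label as well. Hk2, the inducible hexokinase, was at 59.9, 87.8, 85.3 and 110 CPM in Myeloid and at 11.7 to 20.8 CPM in NK cells, and it held 62.1% of hexokinase 1 and 2 UMIs in Myeloid against 27.0% in NK cells. Hk1 ranged from 25.9 CPM in DC to 54.5 in T cell EFF. Of the phosphofructokinases, Pfkl held 74.4% of the family's UMIs in Stroma cells, while Pfkp held 66.6% to 87.6% in the 7 immune labels. Pfkp was at 315, 502, 432 and 352 CPM in DC and at 25.2 to 27.5 CPM in Stroma, a log2 difference of -2.78 between Stroma and all immune cells. Pfkfb3 makes the allosteric activator of phosphofructokinase. It was at 36.05, 43.9, 42.9 and 103 CPM in DC and 20.2 to 39.9 in Myeloid, and at 0.322 to 0.563 CPM in Stroma. Aldoa, the main aldolase, ranged from 709 CPM in DC to 1031 in Myeloid, and its paralog Aldoc was called lower in Stroma, at 1.87 against 11.9 CPM. Gpi1 and Pfkl were highest in Stroma, at 547 and 102 CPM, each less than 2-fold above the pooled immune cells.

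From Tpi1 to Ldha, each enzyme of the lower part of the pathway was higher in Stroma than in the pooled immune cells in all 4 libraries, and none was called. Pgk1, which makes ATP from 1,3-bisphosphoglycerate, was at 1491, 1638, 1580 and 1726 CPM in Stroma against 793 CPM in the pooled immune cells, a log2 difference of 1.00 (0.77 to 1.26 over the libraries). Pgam1, Tpi1, Eno1, Ldha and Gapdh had log2 differences of 0.98, 0.95, 0.80, 0.70 and 0.52. Pkm, the pyruvate kinase, had 0.49, but its pooled level was highest in Myeloid, at 1455 to 1630 CPM, a range that overlapped that of Stroma (1393 to 1534). Several of these enzymes have processed pseudogenes, and Eno1 has the near copy Eno1b, at 15.2 CPM in Stroma. Reads that fit more than 1 copy make these levels less certain.

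Transcripts of the lactate transporters also differed by label. Slc16a3 encodes MCT4, the exporter of highly glycolytic cells, and was at 154, 202, 196 and 222 CPM in Myeloid against 32.4 to 36.8 CPM in Stroma, with no overlap. Slc16a1 encodes MCT1, which carries lactate both ways, and was called higher in Stroma, at 67.6 to 76.1 CPM against 25.4 in immune cells (log2 1.44). Slc16a3 held 89.6% of the UMIs of the pair in Myeloid (84.9 to 90.9) and 32.1% in Stroma (30.8 to 33.7). Pdk1, a kinase that inhibits pyruvate dehydrogenase, was at 30.1 CPM in Stroma against 13.8 in immune cells. It fell short of the call because the log2 difference was 0.62 to 1.53 over the libraries.

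**Figure D3:**
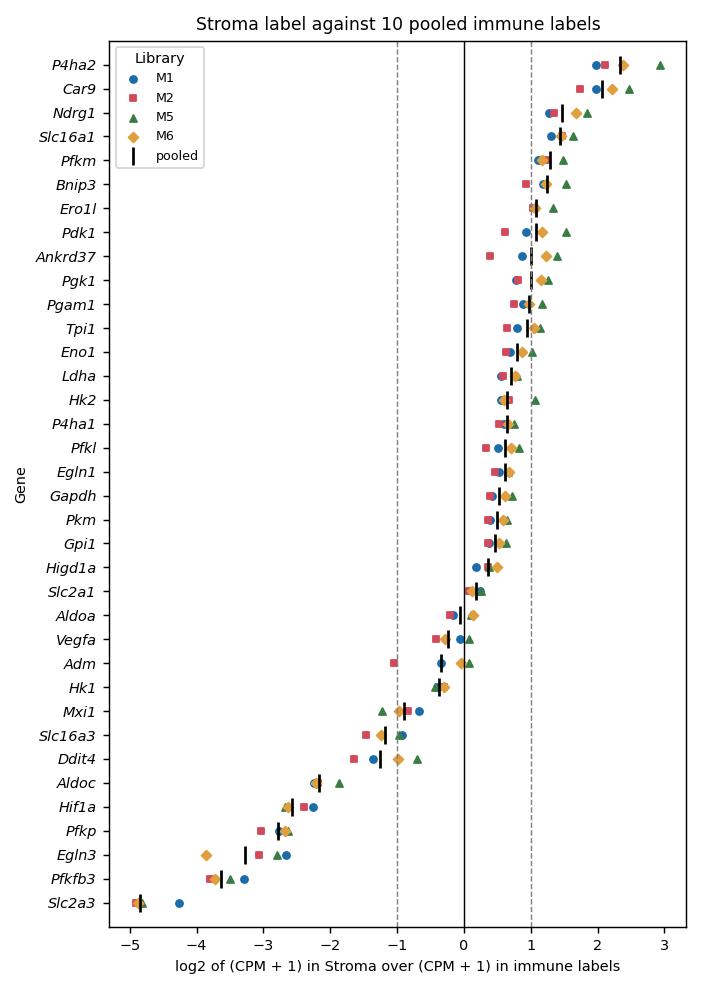
Log2 ratio of level plus 1 CPM in Stroma to that in the 10 pooled immune labels for the 36 members, with a point for each library, a bar for all cells pooled and dashed lines at 2-fold. P4ha2 is highest at 2.34 and Slc2a3 lowest at -4.85, and most enzymes lie between 0 and 1.

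Genes of oxygen sensing were low in Stroma except Egln1. Hif1a (chr12:73901375-73947530, plus strand) was at 62.0, 69.0, 68.2 and 74.3 CPM in Stroma, 571 to 869 in NKT, 539 to 779 in T cell MEM and 386 to 662 in T cell EFF. Every immune label of over 500 cells lay above Stroma, the nearest being DC at 135 to 240 CPM. The share of cells with a Hif1a UMI at 2000 UMIs was 65.8% in T cell EFF (64.2 to 67.4) and 13.1% in Stroma (12.6 to 13.7), against 95.6% and 81.6% without thinning. Egln3, the hydroxylase that hypoxia induces, was at 20.2, 40.6, 47.1 and 42.1 CPM in NKT and 16.7, 26.2, 28.6 and 45.5 CPM in Myeloid, which overlapped, and at 0.318 to 0.847 CPM in Stroma. At 2000 UMIs, 6.73% of 713 NKT cells had an Egln3 UMI (5.01 to 8.83), against 0.0767% of Stroma cells (0.0396 to 0.134), with 12.2% and 0.931% unthinned at median depths of 4287 and 40692 UMIs. Egln1 was at 145 to 167 CPM in Stroma and held 99.8% of the UMIs of the pair there, against 73.2% in NKT.

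Of the 12 members grouped as hypoxia targets, which leaves out the hypoxia-induced Egln3 and the glycolysis genes that HIF also induces, 4 were called higher in Stroma than in immune cells and none lower, out of 11 that passed the 10 CPM limit, where 13.2% of all genes tested were called higher and 18.1% lower. They were P4ha2, Car9, Ndrg1 and Ero1l, of which P4ha2 and Car9 passed the limit only through Stroma, so the count is no support. With Egln1 and Egln3 added, the 14 hypoxia genes had 4 higher and 1 lower, Egln3, of 13 that passed. P4ha2, a collagen prolyl hydroxylase, was at 30.3, 33.6, 31.9 and 36.5 CPM in Stroma against 5.64 CPM in immune cells (log2 2.34, 1.98 to 2.94). Car9 (chr4:43506966-43513729, plus strand) encodes a carbonic anhydrase on the surface of hypoxic tumor cells, and was at 19.98, 21.3, 26.5 and 22.8 CPM in Stroma against 4.42 in immune cells. Ndrg1, a stress-responsive gene of differentiation, was at 399, 532, 566 and 625 CPM in Stroma and at 302, 407, 321 and 381 CPM in Myeloid, lower in each library. Ero1l, an oxidase of the endoplasmic reticulum, was at 222, 267, 248 and 305 CPM in Stroma and at 167, 215, 157 and 255 CPM in Myeloid. For both genes the ranges of the labels overlapped, although Stroma was higher within every library.

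Vegfa, the main angiogenic factor, was not highest in Stroma. It was at 175, 310, 240 and 374 CPM in Myeloid, 142 to 193 in ILC, 111 to 174 in NK cells, 108 to 143 in Stroma and 35.8 to 43.3 in T cell EFF. Among lymphocytes, NK cells and ILC thus lay above T cell EFF, T cell MEM and NKT in every library. At 2000 UMIs, 32.7% of Myeloid cells (30.9 to 34.6), 23.6% of NK cells (22.4 to 24.9) and 3.53% of T cell EFF cells (2.94 to 4.19) had a Vegfa UMI, with 57.5%, 49.0% and 14.8% unthinned. Mxi1, an antagonist of MYC, and Ddit4, an inhibitor of mTORC1, were highest in NKT over the pooled cells, at 216 and 71.6 CPM, though in only 2 of the 4 libraries each, and lower in Stroma, at 51.2 and 20.2 CPM. Bnip3, a receptor of mitophagy, was at 141 to 174 CPM in Stroma and 116 to 187 in Myeloid. Higd1a and Ankrd37 were highest in Stroma, at 267 and 39.0 CPM. Adm, which encodes adrenomedullin, was at most 4.13 CPM in any of the 8 labels. It was too sparse for its comparisons to carry weight, including its place among the members highest in Myeloid.

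Transcripts of stroma genes were also counted in immune cells. Of the 8 genes on the stroma list, 7 were read this way in pooled libraries (Krt8 was too low, at 1.28 CPM in Stroma). Their level in immune labels was a median of 2.26% to 13.2% of that in Stroma. By library, all 8 genes summed to 431, 328, 117 and 177 CPM in Myeloid of M1, M2, M5 and M6. In T cell EFF the sum was 426, 291, 94.1 and 257 CPM, and in Stroma 2265 to 2362 CPM. These levels thus differed between libraries, and their part in the members' levels per library was not tested. Each member was read in the same way, relative to its own level in Stroma. All 36 lay above the highest of the 7 list genes in Myeloid, NK cells, ILC, T cell EFF and T cell MEM. In DC, P4ha2 and Slc16a1 did not, nor did Car9 in NKT. With Krt8 kept, P4ha2 and Car9 fell below it in T cell MEM, and P4ha2 also in NKT. Krt8 had only 2 UMIs in T cell MEM and 1 in NKT. Slc2a3, Pfkfb3, Egln3 and Adm were lower than Krt8 in Stroma, so their place above the list genes carries no weight. The share of all genes above the list genes was not computed. The levels of the list genes were read as background, and the parts of free RNA and doublets in it were not tested. Of the smallest labels, B cells had 124 cells and 13 members at that level.

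Myeloid cells were set against the 8 lymphocyte labels pooled in the same way, with those immune cells shared by the comparison above. Of 8370 genes tested, 10.3% were called higher in Myeloid and 4.17% lower. Of 33 members tested, 7 were called higher and 0 lower, and the median log2 difference was 0.40, against -0.14 over all genes. The 7 were Slc16a3 (log2 1.88), Hk2 (1.71), Egln3 (1.70), Pfkfb3 (1.60), Bnip3 (1.49), Slc2a1 (1.48) and Ndrg1 (1.34). Egln3 passed the limit only through Myeloid, at 31.3 against 8.92 CPM, so the limit favoured its call. They take in a glucose transporter, a hexokinase, the maker of the phosphofructokinase activator and a lactate exporter. With a 3-fold limit, 0 members were higher, where 6.58% of all genes tested were, so no pattern along the pathway is read from the 7. The 5 enzymes from Gapdh to Pkm had a median log2 difference of 0.36, and 0 of them were called at 2-fold. Among single enzymes, Pgam1 had 0.78, Pkm 0.71, Tpi1 0.61 and Gapdh 0.28. Vegfa had 1.33 pooled but 0.79 in 1 library, so it was not called. Slc2a3 was lower in Myeloid, with a log2 difference of -1.26 (-1.52 to -0.83). Without M1, the library at -0.83, Slc2a3 was called lower, 1 member in all, where 4.89% of all genes tested were.

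T cell EFF, the label with the most Cd8a, was set against NK cells. Of 7999 genes tested, 3.20% were called higher in T cell EFF and 2.33% lower. Of 31 members tested, 3 were higher, Mxi1 (log2 1.75), Slc2a3 (1.48) and Ankrd37 (1.14), and Vegfa alone was lower (-1.82, with -2.03 to -1.55 over the libraries). Gapdh differed by 0.64 and Hif1a by 0.88. The median over the 31 was 0.39, against 0.07 over all genes.

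Other genes of the same pathways were read from lists that held no member. Several passed the 10 CPM limit only through the side where they were high, so the limit favoured their calls: Eno2, Hk3, Angptl4, Epas1 and Rora in Stroma against immune cells, Pfkfb4, Ldhb and Epas1 in Myeloid against lymphocytes, and Epas1 in T cell EFF against NK cells. Of 23 further glycolysis genes, 10 passed the limit in Stroma against immune cells, where the neuronal enolase Eno2 was called higher (36.8 against 10.00 CPM) and Hk3 lower (0.342 against 32.8 CPM). Of 30 further hypoxia genes, 22 passed, with Angptl4 (log2 1.99) among those called higher, and Epas1, Rora and Bhlhe40 lower. In Myeloid against lymphocytes, Hk3 (log2 3.21), Pfkfb4 and Ldhb were higher among 11 glycolysis genes tested. Among the 22 hypoxia genes, the heme oxygenase gene Hmox1 (2.91), the lipid droplet gene Plin2 (2.37), Plod1 and again Pfkfb4, which stands on both lists, were higher, and Epas1 was lower. In T cell EFF against NK cells, Eno3 was higher among 8 glycolysis genes, and Epas1 (2.41) and Rbpj (1.44) among 19 hypoxia genes. Over all genes tested, 13.2% were called higher and 18.1% lower in Stroma. The shares were 10.3% and 4.17% in Myeloid, and 3.20% and 2.33% in T cell EFF.

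The members also varied from cell to cell within Stroma. Stroma cells were thinned to 10000 UMIs, which kept 14073 cells and left out 1614, and the UMIs of the 14 hypoxia genes were summed in each cell. The variance of this sum was 16.4 to 19.0 times its mean over the libraries, where counting error alone gives about 1. Across cells, the sum correlated with that of the 21 glycolysis genes at a Pearson r of 0.75 to 0.77 in the 4 libraries (Spearman 0.59 to 0.70). The cells of a library share its reagents and depth, they are not replicates, and r is a description. The hypoxia sum had an r of -0.08 to -0.03 with the stroma list and -0.13 to -0.05 with the share of mitochondrial UMIs. The glycolysis sum had an r of -0.21 to -0.14 with the stroma list. The label does not part tumor cells from fibroblasts, and the part of that mix in the r of the sums and of single members was not tested. When Stroma cells of each library were put in quintiles by the hypoxia sum, the mean glycolysis UMIs per 10000 were 80.3, 76.2, 77.6 and 85.0 in the lowest quintile and 238, 241, 261 and 261 in the highest.

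**Figure D4:**
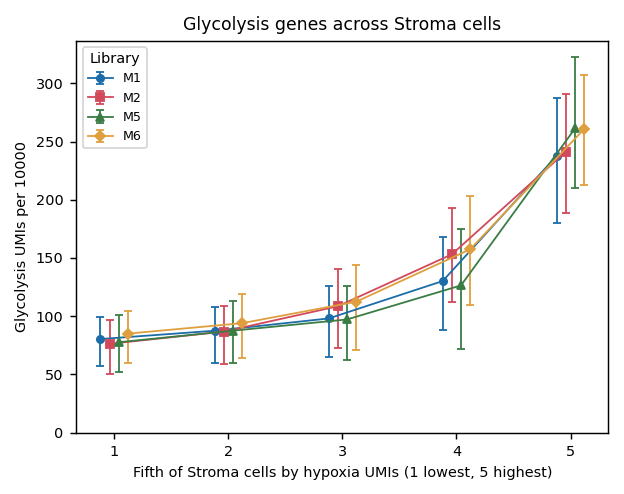
Mean glycolysis UMIs of Stroma cells thinned to 10000 UMIs, by quintile of the cells ranked on hypoxia UMIs within each library, with bars from the 25th to the 75th percentile of cells. The means lie at 76.2 to 85.0 in the lowest quintile and 238 to 261 in the highest, in all 4 libraries, and most of the climb is in the upper quintiles.

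Most members took part in this variation, with a few exceptions. Each member was correlated with the sum of the hypoxia genes, itself left out, and 8529 genes found in at least 5% of Stroma cells in every library were ranked by the lowest r over the libraries. Ero1l came first (r 0.70 to 0.73), Bnip3 second (0.69 to 0.71), and Gapdh, Pgk1, Aldoa, Pkm, Gpi1 and Slc2a1 all stood among the top 10. The 99th percentile of the lowest r over all genes was 0.18. From the lowest to the highest quintile of cells, Bnip3 was 14.8 to 18.1 times higher over the libraries, Ero1l 13.4 to 16.7 times, Slc2a1 6.89 to 8.70 times and Pgk1 5.53 to 7.38 times. Gapdh, the most abundant member, was 2.46 to 2.95 times higher. Car9 had 0.00467 to 0.00990 UMIs per cell in the lowest quintile and 0.740 to 1.00 in the highest. For these values, each hypoxia gene was left out of the sum that ranked its own quintiles, as for the r.

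The exceptions included the gene of the factor itself. Hif1a had an r of -0.01 to 0.06 in Stroma, Slc16a1 -0.05 to -0.02, Hk2 -0.00 to 0.11, Pfkm -0.01 to 0.01 and Ddit4 0.00 to 0.12, and each was detected in at least 7.33% of cells in every library. Slc2a3, Pfkfb3, Egln3, Aldoc and Adm were under the 5% limit in Stroma and were not ranked. Vegfa was intermediate (0.28 to 0.43), as were P4ha1 (0.31 to 0.45) and Slc16a3 (0.20 to 0.32).

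Among Myeloid cells thinned to 4000 UMIs (1909 cells, with 771 left out), the hypoxia and glycolysis sums correlated at 0.53 to 0.64. Slc2a1 ranked first of 5940 genes (r 0.52 to 0.58), followed by Ndrg1 (0.44 to 0.55), Bnip3 (0.42 to 0.50), Gapdh (0.38 to 0.58) and Ero1l (0.38 to 0.50). Egln3, barely detected in Stroma, varied with the sum here (0.25 to 0.47). At the same 4000 UMIs, the r of both sums was 0.68 to 0.70 in Stroma, 0.36 to 0.47 in ILC, 0.28 to 0.58 in T cell MEM, 0.28 to 0.50 in T cell EFF and 0.22 to 0.39 in NK cells. Mean levels of the hypoxia genes are lower in lymphocytes, and the part of that in the lower r was not tested.

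**Figure D5:**
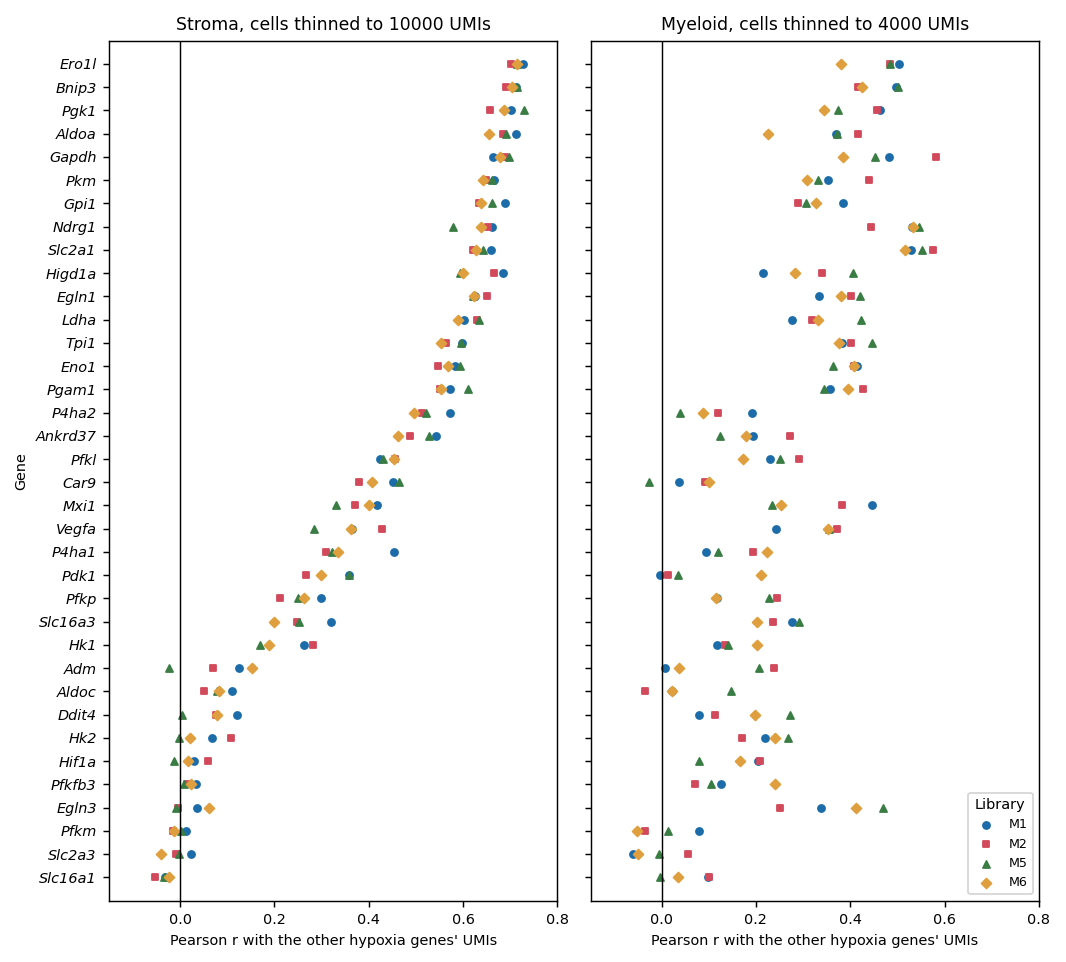
Pearson r of each member with the UMIs of the other hypoxia genes across single cells, in Stroma (left) and Myeloid (right), with a point for each library and genes ordered by their median in Stroma. Ero1l and Bnip3 lie at about 0.7 in Stroma while Hif1a and Slc16a1 lie near 0, and Slc2a1 is highest in Myeloid at 0.52 to 0.58.

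Outside the list, the genes that varied most with the hypoxia sum in Stroma were Bsg (r 0.67 to 0.70), Fam162a (0.66 to 0.71), Mif (0.62 to 0.68), Bnip3l (0.57 to 0.61) and Tnfrsf9 (0.55 to 0.59). Bsg encodes basigin, the chaperone of the monocarboxylate transporters, and Tnfrsf9 encodes the T cell costimulator 4-1BB. Plod2, Lrrfip1, Hilpda, Lgals3, Itpk1, Fau and Eno2 followed, with r of 0.37 to 0.53. Fam162a, Mif, Bnip3l, Plod2 and Eno2 stand on the list of further pathway genes. The lowest r were those of Psmb10 (-0.35 to -0.31), Ifitm3 (-0.36 to -0.30), Ly6e (-0.39 to -0.30), Hmgb1 (-0.31 to -0.28), Ptms (-0.31 to -0.27) and Psme2 (-0.30 to -0.27). Psmb10 and Psme2 encode parts of the immunoproteasome and its activator, and Ifitm3 and Ly6e are induced by interferon. In Myeloid, the highest outside the list were Tmem189, Basp1, Hilpda, Lgals3, P4hb, Bsg, Inhba and Ptgs2, with lowest values of 0.27 to 0.36.

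Stroma cells with and without the fibroblast collagen Col3a1 differed in the members as well. After thinning to 10000 UMIs, 9764 Stroma cells had no Col3a1 UMI, 2291 had at least 2, and 2018 with 1 were set aside. The glycolysis sum was 13902 to 15079 CPM over the libraries in cells without Col3a1 and 8791 to 10818 in cells with at least 2, and the hypoxia sum was 1764 to 2185 against 1197 to 1599 CPM. Neither range overlapped. Of the members that were lower with Col3a1, Car9 had the lowest ratio, at 26.4 against 5.54 CPM, followed by Ero1l, at 306 against 109 CPM. Hk2 and Hif1a were higher with Col3a1 in each of the 4 libraries, at 61.5 against 92.2 CPM and 66.02 against 92.97 CPM. So were Pfkm, at 8.58 against 10.7 CPM, and the sparse Adm, at 0.61 against 3.67 CPM. Vegfa, P4ha1 and P4ha2 had ratios of 0.99 (0.94 to 1.09 over the libraries), 1.05 (1.04 to 1.12) and 0.91 (0.72 to 1.11).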

How the data were processed

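The deposited values were raw UMI counts per gene and cell, which the authors obtained with Cell Ranger 3.0.2 on GRCm38 (mm10), per the submitters' processing notes, keeping cells above 500 UMIs, with no normalization. A total UMI count, a number of detected genes, a library name and a cell type label per cell were deposited beside them. The counts of all 33961 cells summed to the deposited totals. Removal of doublets or free RNA is not given in the sources used here, and none was done. Counts were summed per label and library and scaled to CPM. Log2 differences used a pseudocount of 1 CPM. Shares used cells thinned without replacement to 2000 UMIs. Sums and correlations were computed with numpy 2.4.6 and pandas 2.3.3 in Python 3.11.15, and intervals with scipy 1.17.1. The steps were tested on simulated data. Intervals cover counting error only.

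The planned comparison of treatments was not run, because no source pairs the 4 libraries with the 6 samples. The members and lists were chosen with earlier results of these data known. Named were all members, the markers, called genes of the further pathway lists, and the 12 highest and 6 lowest genes by r in Stroma and the 8 highest in Myeloid. A result for 1 gene of the further lists is not reported here. The C1qa split, its S100a9 value and the printed promoters were chosen after values were seen. Positions are from GENCODE M21.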

Additional observations from a re-analysis of the deposited data

How the results depend on the processing

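No paired analysis was possible because the libraries could not be matched to the numbered samples. The log2 differences of the 2 sums kept their sign in all 60 recomputations. For Myeloid over lymphocytes, the glycolysis difference of 0.38 was 0.57 with the mean of per-cell CPM, 0.25 without mitochondrial and ribosomal genes in the denominator, 0.45 without immune cells of 2 or more stroma-list UMIs and 0.45 without the 5% of cells with most UMIs, and the hypoxia difference of 0.74 was 0.92 with the mean per cell, 0.91 without stroma-list UMIs and 0.90 without the top 5%. For T cell EFF over NK cells, the glycolysis difference of 0.37 was 0.55 with the mean per cell, 0.46 without the top 5% and 0.26 without Gapdh, and the hypoxia difference of 0.30 was 0.20 and 0.24 with the first 2 of these. For Stroma over immune cells, the hypoxia difference of 0.69 was 0.46 without Ndrg1. With a limit of 1.5-fold, 11 members were higher (21.5% of all genes tested) and 9 lower (26.1%) in Stroma, 12 higher (15%) and 2 lower (10.6%) in Myeloid and 7 higher (7.06%) and 1 lower (4.45%) in T cell EFF. With 3-fold, 2 were higher (7.62%) and 6 lower (12.6%) in Stroma, 0 higher (6.58%) and 0 lower (0.992%) in Myeloid, and 1 higher (1.60%) and 0 lower (1.24%) in T cell EFF. A pseudocount of 5 CPM left 1 higher in T cell EFF (2.44%). In Myeloid, 1 was lower without the top 5% (5.57%), and leaving out each library gave 0 to 1 lower, where 4.20% to 4.89% of all genes tested were. Slc16a3 held 92.9% of its pair in Myeloid without stroma-list UMIs. The median r of both sums in Stroma, 0.76, was 0.69 at 4000 UMIs, 0.80 at 20000 and 0.77 without cells over 10% mitochondrial UMIs. This filter and the one on stroma-list UMIs were added for the counts of members after seeing the data and moved none of them by over 1.5 times. The causes were not tested. Shares of cells with a UMI scale with depth and hold only at the depth given. Genes under 10 CPM, such as Adm and Pfkm, rest on few UMIs in the smaller labels. Pfkm had 6348 UMIs in Stroma but 10 in NKT.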

Other observations

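Myeloid cells were split by C1qa, a complement gene of tumor macrophages, a split added with values already seen. At 4000 UMIs, 1280 cells had no C1qa UMI and 488 had at least 2. The ratio of cells with C1qa to cells without was 0.94 to 1.10 over the libraries for the glycolysis sum and 0.65 to 0.82 for the hypoxia sum, which was lower with C1qa in each library. Egln3 was at 43.8 CPM without C1qa and 16.9 with it, Ero1l at 278 and 147, and Vegfa at 373 and 216. The neutrophil gene S100a9 was at 1152 and 526 CPM in the same cells, and its part in these differences was not tested.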
